A study of Mus musculus with 10 samples.

Results

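Skeletal muscle genes were followed in mammary tumors of Tg-neu mice (strain FVB/N-Tg(MMTVneu)), in which the neu oncogene is driven by the mouse mammary tumor virus promoter. The set held 35 genes given by name for their known place in skeletal muscle, out of 18193 genes with a probe set of their own. The list was drawn up with earlier results of these data known. Each gene was read by the probe set with the highest mean signal among those annotated to that gene alone, and all 35 genes had one. RNA of 10 tumors was measured on 1 array each. In the Lov group, tumors A19, A48, A50, A55 and AB10 came from Tg-neu mice given lovastatin (Lov), an inhibitor of HMG-CoA reductase, at 10 mg/kg, 3 times a week for 6 weeks by intraperitoneal injection. In the Vhcl group, tumors A45, A49, A54, A59 and AB11 came from Tg-neu mice that received the ethanol vehicle (Vhcl) by the methods, whereas a free-text field of the labels calls them not treated. All mice carried the transgene, the labels tie no tumor to a mouse of its own, and so a p-value here measures the spread between these tumors, which may share mice.

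Skeletal muscle contracts when actin filaments, anchored in the Z-disc, slide along myosin filaments. Fast and slow fibers use different genes for the same parts, so that myosin heavy chain, troponin and the calcium pump each come in a fast and a slow form, while actin, titin and nebulin serve both kinds of fiber. Mammary glands of mice lie under the skin next to thin sheets and limb muscles that are rich in fast fibers, and mammary epithelium itself does not build sarcomeres. The 35 genes were sorted into 14 fast-fiber genes, 5 slow-fiber genes, 7 sarcomere genes shared by both fiber types, 5 genes of muscle energy metabolism, 2 of excitation-contraction coupling and 2 ubiquitin ligases of muscle atrophy.

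The values were log2 signals, on which 1 unit is a 2-fold step, and the median of an array lay between 4.97 and 5.05. Pearson's r between pairs of arrays was 0.969 to 0.990 over all probe sets. The mean log2 signal of 8 markers of mammary luminal epithelium, the layer from which these tumors arise, was 9.90 to 10.51 in the 10 tumors, and the mouse Erbb2 probe set stood at 7.76 to 8.44. Vhcl AB11 stood apart in 7 salivary gland markers, whose mean was 10.93 there, 7.05 in Vhcl A59, 6.36 in Lov A19 and 4.89 to 5.77 in the other tumors. Signals of different probe sets are not comparable as levels, so each gene was set against its own median over the 10 tumors.

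Skeletal muscle genes were high in 3 tumors, 2 of them Vhcl-treated and 1 Lov-treated. Acta1, the actin of the skeletal muscle thin filament, had the widest range of the 35 genes. Its log2 signal was 10.44 in Vhcl A54 and 10.57 in Vhcl A59, against 5.60, 4.21 and 7.08 in Vhcl A45, A49 and AB11. In the Lov group it was 10.26 in A55, against 6.13, 4.68, 4.91 and 4.45 in A19, A48, A50 and AB10. Each of these 3 tumors thus lay at least 3.18 log2 units above each of the other 7, and the highest tumor was 82.1-fold above the lowest. The groups overlapped over nearly the whole range.

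The same 3 tumors, Vhcl A54, Vhcl A59 and Lov A55, were the 3 highest of the 10 in 26 of the 35 genes. Over all 18193 genes they were so in 149, or 0.819%. They were singled out after their muscle signals were seen, and so no test between them and the other tumors was made. All 14 fast-fiber genes were among the 26, with 5 of 7 shared sarcomere genes, 4 of 5 energy genes, 2 of 5 slow-fiber genes, Ryr1 of the coupling genes and neither ubiquitin ligase. The slow-fiber genes were Mybpc1 and Tnni1. For Tnni1 the order rested on a small margin, with 5.69 in Vhcl A54 but 4.71 in Vhcl A59, 4.69 in Lov A55 and 4.67 in Vhcl AB11. Vhcl AB11 was the fourth highest tumor in 20 of the 26 genes. Counted gene by gene, 26 of 35 lay at least 1 log2 unit above their own median in Vhcl A54 (0.55% of all genes did so in that tumor), 23 in Vhcl A59 (2.02%), 21 in Lov A55 (0.357%), 6 in Vhcl AB11 (0.308%) and 1 in Lov A50 (0.143%). In Vhcl A45, Vhcl A49, Lov A19, Lov A48 and Lov AB10 none of the 35 did, with 1.12%, 1.39%, 0.566%, 0.148% and 0.308% of all genes past that step. RNA of a whole tumor does not tell more cells of a type from more RNA per cell, and muscle taken with the tumor cannot be told apart here from muscle genes transcribed within it.

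**Figure D1:**
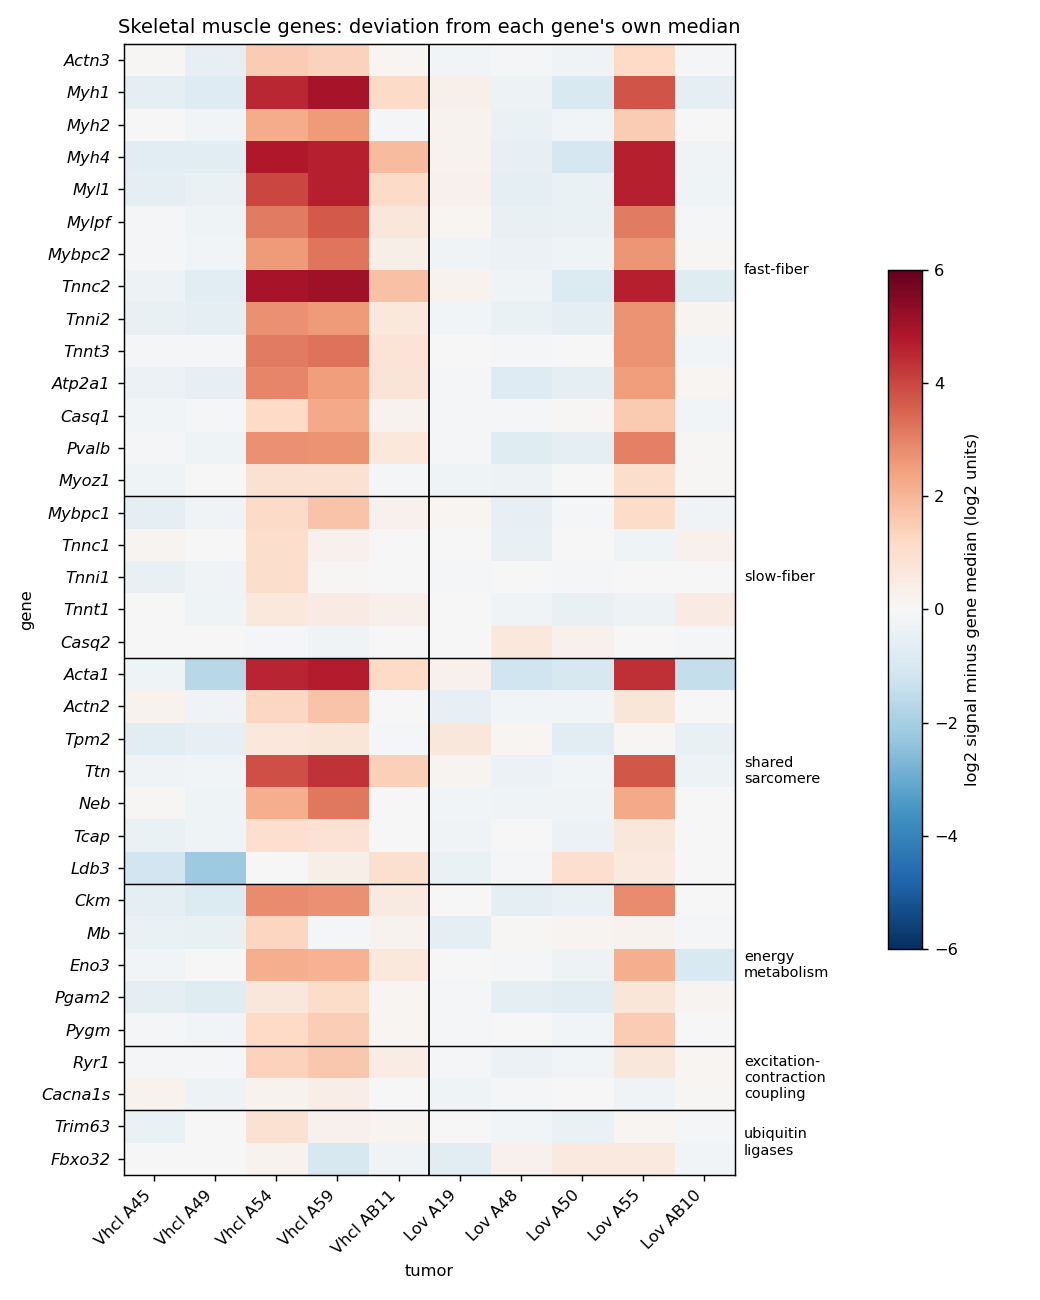
Log2 signal of each of the 35 skeletal muscle genes (vertical axis, by class) minus that gene's median over the 10 tumors (horizontal axis, Vhcl left and Lov right of the line), with red above and blue below the median. The columns of Vhcl A54, Vhcl A59 and Lov A55 are red over nearly all fast-fiber genes, while most slow-fiber genes and both ubiquitin ligases stay pale there.

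The promoters of 3 genes are printed because they stand for the patterns met below. Acta1 is shared by both fiber types and high in the 3 tumors, and Myh4 is a fast-fiber gene of the same pattern. Tnni1 is a slow-fiber gene that stood apart in Vhcl A54, with Vhcl A59 and Lov A55 barely above the rest. Each line holds the 250 bases before the RefSeq start on the gene's strand, 5′ to 3′ (build GRCm38.p6), at chr8:123894776-123895025 on the minus strand, chr11:67237562-67237811 on the plus strand and chr1:135799171-135799420 on the plus strand. Capitals mark the E-box CAGCTG, a site that MyoD-family factors can bind, the MEF2 site, TATAAA, and the CArG box, to which serum response factor binds.
Acta1: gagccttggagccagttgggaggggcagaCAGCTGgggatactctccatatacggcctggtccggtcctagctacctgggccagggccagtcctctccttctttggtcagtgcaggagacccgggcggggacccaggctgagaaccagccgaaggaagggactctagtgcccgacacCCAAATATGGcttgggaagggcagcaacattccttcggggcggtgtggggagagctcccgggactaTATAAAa
Myh4: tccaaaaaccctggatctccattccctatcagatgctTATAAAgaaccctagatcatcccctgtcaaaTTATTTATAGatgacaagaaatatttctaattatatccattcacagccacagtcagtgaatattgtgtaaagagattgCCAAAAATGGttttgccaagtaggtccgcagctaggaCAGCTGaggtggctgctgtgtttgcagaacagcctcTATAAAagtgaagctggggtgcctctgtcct
Tnni1: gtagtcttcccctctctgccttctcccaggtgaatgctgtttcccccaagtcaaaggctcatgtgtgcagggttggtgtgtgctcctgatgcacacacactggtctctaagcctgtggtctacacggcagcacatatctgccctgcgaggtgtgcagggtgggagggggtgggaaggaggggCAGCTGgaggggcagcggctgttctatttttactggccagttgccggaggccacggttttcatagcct
Acta1 holds 1 CArG box, whose first base lies 73 bases before the start, and 1 E-box CAGCTG 221 bases before it. It also holds 1 TATAAA, 7 bases before the RefSeq start. Myh4 holds 1 E-box CAGCTG, 1 MEF2 site, 1 CArG box and 2 copies of TATAAA, the nearer one 31 bases before the start. In the Tnni1 window 1 E-box CAGCTG was found, 68 bases before the start.

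Promoter windows from 250 bases before to 50 after the start were at hand for 28 of the 35 genes, with 33 windows in all because some genes have several starts. The E-box CAGCTG, a palindrome read on both strands, occurred in 18 of the 33 windows (54.5%) and in 16.3% of all 32851 windows. It is a subset of the general E-box CANNTG, which was in 27 of the 33 (81.8%) and in 72.3% of all. The MEF2 site was found in 6 windows (18.2%, against 3.19% of all) and the CArG box in 4 (12.1%, against 1.63%), both searched on both strands. TATAAA, searched on the gene's strand alone, was in 6 windows (18.2%, against 8.32%). Slow-fiber genes held such sites too, since Mybpc1 and Tnni1 had CAGCTG and Casq2 a MEF2 site. The matches describe letters in these windows and no binding was measured.

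The fast-fiber genes had the widest median range of the classes, followed by the shared sarcomere genes. Of these 14 genes, 13 ranged over 2 log2 units or more, and 21 of the 35 genes did so, against 3.81% of all genes. The median range was 3.63 log2 units over the fast-fiber genes, 3.17 over the shared sarcomere genes, 2.43 over the 35 genes and 0.70 over all genes. Tnnc2, the calcium-binding subunit of fast troponin, had log2 signals of 4.71, 4.35, 9.93, 10.08 and 6.78 in Vhcl A45, A49, A54, A59 and AB11. With Lov, in A19, A48, A50, A55 and AB10, they were 5.23, 4.78, 4.19, 9.68 and 4.27. The 3 high tumors lay at least 2.90 above the rest, and Vhcl AB11 lay between them and the other tumors.

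Myh1, the myosin heavy chain of type 2X fibers, was at 3.14, 2.95, 8.23, 8.65 and 4.87 in Vhcl A45, A49, A54, A59 and AB11. In Lov A19, A48, A50, A55 and AB10 it was at 4.03, 3.40, 2.78, 7.48 and 3.18. The order of the tumors was like that of Tnnc2, with Lov A55 below both high Vhcl-treated tumors. Myh4, the myosin heavy chain of type 2B fibers, was at 3.14, 3.18, 8.61, 8.47 and 5.68 in Vhcl A45, A49, A54, A59 and AB11. With Lov, in A19, A48, A50, A55 and AB10, it was at 4.01, 3.30, 2.81, 8.47 and 3.58. For Myh4 the 3 high tumors differed by no more than 0.14. Myh2, the heavy chain of the more oxidative type 2A fibers, ranged less, from 2.88 to 5.82.

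The other fast-fiber genes had the same 3 tumors on top. The myosin light chains Myl1 and Mylpf ranged over 5.20 and 4.09 log2 units. Atp2a1, the fast calcium pump of the sarcoplasmic reticulum, ranged over 3.70, and Pvalb, the calcium buffer parvalbumin of fast fibers, over 3.71. The fast troponins Tnnt3 and Tnni2 and the myosin-binding protein Mybpc2 ranged over 3.41, 3.35 and 3.56. Casq1, a calcium store protein, ranged over 2.43 and Actn3, the Z-disc actinin of fast fibers, over 2.05. Myoz1, a Z-disc protein, had the narrowest range of the class, 1.35, with the 3 tumors still at 6.25 to 6.40 and the others at 5.05 to 5.41.

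The slow-fiber genes varied less and split among themselves. Their median range was 1.48, and 1 of 5 ranged over 2 log2 units or more. Mybpc1, the slow myosin-binding protein C, followed the fast-fiber genes, with 4.08, 4.47, 5.82, 6.37 and 4.90 in Vhcl A45, A49, A54, A59 and AB11. Its signals in Lov A19, A48, A50, A55 and AB10 were 4.78, 4.17, 4.54, 5.75 and 4.43. The 3 high tumors stood 0.85 above the rest.

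Tnni1, the inhibitory subunit of slow troponin, was at 5.69 in Vhcl A54 and at 4.20, 4.43, 4.71 and 4.67 in Vhcl A45, A49, A59 and AB11. The Lov tumors A19, A48, A50, A55 and AB10 had 4.56, 4.63, 4.52, 4.69 and 4.66. Tnnc1, troponin C of slow and cardiac muscle, was at 5.48 in Vhcl A54, and at 4.60, 4.41, 4.71 and 4.44 in Vhcl A45, A49, A59 and AB11. In Lov A19, A48, A50, A55 and AB10 it was at 4.44, 4.00, 4.42, 4.17 and 4.69. Both genes thus set Vhcl A54 apart, by 0.98 and 0.77 log2 units from the next tumor, and Lov A55, where Tnnc2 stood at 9.68, was within the range of the other tumors for Tnnc1. Tnnt1, slow troponin T, was at 4.18, 4.04 and 4.03 in Vhcl A54, Vhcl A59 and Lov AB10 and at 3.11 to 3.88 elsewhere, with Lov A55 at 3.27. Casq2, the calsequestrin of heart and slow muscle, was at 5.47, 5.48, 5.37, 5.23 and 5.45 in Vhcl A45, A49, A54, A59 and AB11. It was at 5.44, 6.09, 5.70, 5.50 and 5.37 in Lov A19, A48, A50, A55 and AB10, highest in A48. Its probe set carries the ending that marks probes shared between transcripts.

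The deviation of the genes from their own medians was averaged over each class in each tumor, which is not a measure of fiber composition. The 14 fast-fiber genes lay 2.95 log2 units above their medians in Vhcl A54, 3.17 in Vhcl A59 and 2.84 in Lov A55, which are geometric mean folds of 7.72, 8.98 and 7.17. The 5 slow-fiber genes lay 0.76, 0.46 and 0.12 above theirs, or 1.69-, 1.38- and 1.09-fold. The 7 shared sarcomere genes stood between the classes at 1.94, 2.26 and 1.78. In Vhcl AB11 the fast-fiber genes lay 0.71 above and the slow-fiber genes 0.12. The difference between both classes, fast minus slow, was 2.19 in Vhcl A54, 2.71 in Vhcl A59, 2.72 in Lov A55 and 0.59 in Vhcl AB11, and between -0.32 and 0.01 in the other 6 tumors. Of the 3 high tumors, Vhcl A54 had the smallest difference between these class means. The slow-fiber mean in Vhcl A59 rested largely on Mybpc1, 1.71 above its median. The median over the 5 slow-fiber genes was 1.04 in Vhcl A54, 0.27 in Vhcl A59 and 0.04 in Lov A55. A probe set near background moves less for the same change in RNA, and how far that holds for the slow-fiber genes was not tested.

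**Figure D2:**
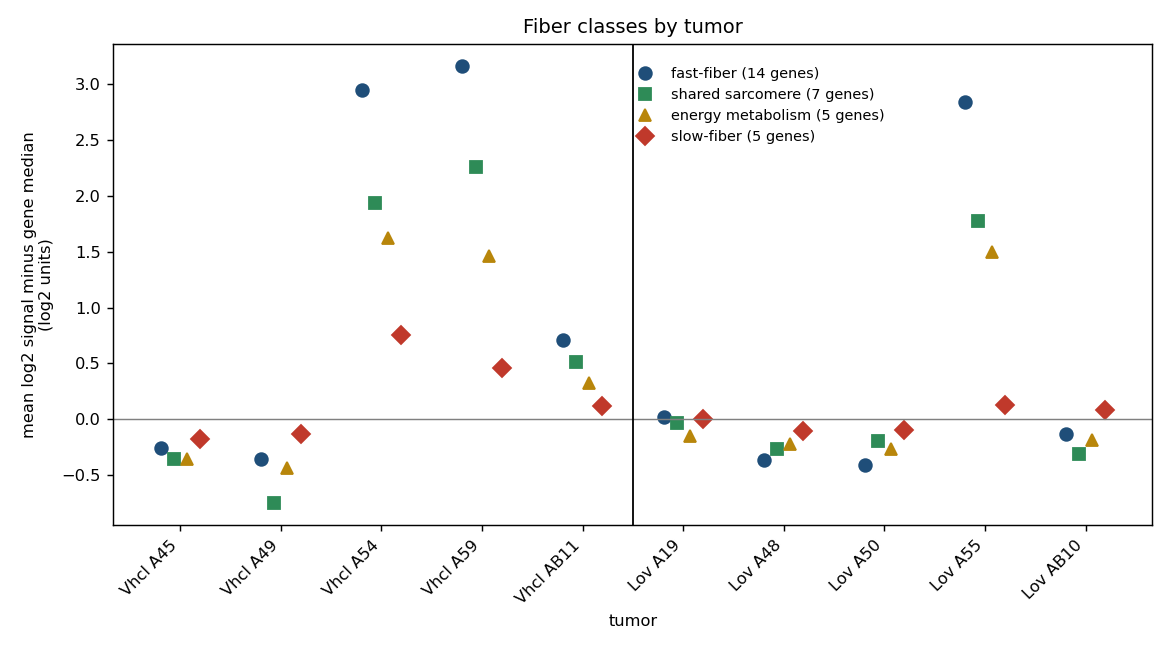
Mean over the genes of a class of the log2 signal minus the gene's median (vertical axis, log2 units) in each of the 10 tumors (horizontal axis), with 1 symbol per class and no error bars. The fast-fiber circles lie at 2.84 to 3.17 in Vhcl A54, Vhcl A59 and Lov A55, while the slow-fiber diamonds there lie at 0.12 to 0.76.

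Among the shared sarcomere genes, Ttn and Neb followed Acta1. Ttn, the giant spring protein titin, was at 3.39, 3.43, 7.50, 7.93 and 5.04 in Vhcl A45, A49, A54, A59 and AB11. In Lov A19, A48, A50, A55 and AB10 it was at 3.76, 3.24, 3.46, 7.32 and 3.32. The 3 high tumors lay at least 2.28 above the others. Neb, nebulin of the thin filament, was at 2.86, 2.55, 5.01, 5.98 and 2.81 in Vhcl A45, A49, A54, A59 and AB11. Its signals in Lov A19, A48, A50, A55 and AB10 were 2.63, 2.62, 2.62, 5.08 and 2.81. Vhcl AB11 had no more Neb signal than the low tumors. Actn2, the alpha-actinin of the Z-disc, was at 4.46, 4.02, 5.46, 5.95 and 4.26 in Vhcl A45, A49, A54, A59 and AB11, and at 3.74, 4.07, 4.09, 4.98 and 4.22 in Lov A19, A48, A50, A55 and AB10. Tcap, which caps titin at the Z-disc, ranged over 1.43 with the same 3 tumors on top.

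Tpm2 and Ldb3 departed from the pattern. Tpm2, beta-tropomyosin, which smooth muscle also makes, was at 8.36 and 8.46 in Vhcl A54 and A59, but Lov A19 lay between them at 8.40, and Lov A55 was lower at 7.81. Another Tpm2 probe set did show the 3 tumors on top, at 6.29, 5.80 and 5.85 in Vhcl A54, Vhcl A59 and Lov A55 against 3.12 to 4.23 elsewhere. Ldb3, a Z-disc adaptor protein, was at 5.98, 4.98, 7.18, 7.52 and 8.13 in Vhcl A45, A49, A54, A59 and AB11. It was at 6.74, 7.09, 8.15, 7.75 and 7.12 in Lov A19, A48, A50, A55 and AB10, so that Lov A50 and Vhcl AB11 were highest. A dimmer Ldb3 probe set gave 5.63, 5.56 and 5.55 in Vhcl A54, Vhcl A59 and Lov A55 and 4.22 to 4.60 in the other tumors. For these genes the probe set decided the order of the tumors. In total, 12 of the 35 genes had more than 1 probe set of their own. At least 1 further probe set each of Myh1, Myh4, Tnni2, Myoz1, Mybpc1, Ttn, Ckm, Mb and Ryr1 ranged over no more than 0.82. Among these narrow probe sets, those of Myh4 and Ryr1 still had the 3 tumors on top.

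The genes of muscle energy metabolism were high in the same tumors, with Mb as the exception. Ckm, the creatine kinase of muscle, was at 4.85, 4.57, 8.22, 8.13 and 5.94 in Vhcl A45, A49, A54, A59 and AB11. In Lov A19, A48, A50, A55 and AB10 it was at 5.45, 4.87, 5.00, 8.24 and 5.36. The 3 high tumors lay close together, from 8.13 to 8.24. Eno3, the enolase of muscle glycolysis, was at 5.64, 5.85, 8.0, 7.89 and 6.45 in Vhcl A45, A49, A54, A59 and AB11, and at 5.76, 5.67, 5.51, 7.98 and 4.87 in Lov A19, A48, A50, A55 and AB10. Pgam2, the muscle phosphoglycerate mutase, was at 4.67, 4.50, 5.92, 6.34 and 5.38 in Vhcl A45, A49, A54, A59 and AB11, and at 5.12, 4.68, 4.64, 5.96 and 5.43 in Lov A19, A48, A50, A55 and AB10. Pygm, the glycogen phosphorylase of muscle, ranged from 3.76 to 5.46. Mb, myoglobin, which stores oxygen in oxidative fibers and the heart, was at 8.54 in Vhcl A54 and at 6.73 to 7.50 in all other tumors, with Vhcl A59 at 7.19 and Lov A55 at 7.50. By this probe set Mb set Vhcl A54 apart, as Tnni1 and Tnnc1 did. A dimmer Mb probe set did not, with Vhcl A54 lowest at 4.00 and the other tumors at 4.01 to 4.73.

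Ryr1, the calcium release channel of the sarcoplasmic reticulum, was at 4.12, 4.15, 5.66, 5.85 and 4.69 in Vhcl A45, A49, A54, A59 and AB11. Among the Lov tumors A19, A48, A50, A55 and AB10 it was at 4.15, 3.88, 4.07, 4.94 and 4.36. Cacna1s, the voltage sensor that opens Ryr1, was at 4.34, 3.82, 4.34, 4.53 and 4.14 in Vhcl A45, A49, A54, A59 and AB11, and at 3.89, 4.05, 4.13, 3.94 and 4.22 in Lov A19, A48, A50, A55 and AB10. Its range of 0.71 was the narrowest of the 35 genes. Trim63 (MuRF1), a ubiquitin ligase of muscle wasting, was at 2.90, 3.32, 4.23, 3.59 and 3.49 in Vhcl A45, A49, A54, A59 and AB11, and at 3.32, 3.17, 2.92, 3.43 and 3.21 in Lov A19, A48, A50, A55 and AB10. Fbxo32 (atrogin-1), the other ligase, was at 9.81, 9.73, 9.98, 8.83 and 9.55 in Vhcl A45, A49, A54, A59 and AB11, and at 9.12, 10.03, 10.35, 10.34 and 9.61 in Lov A19, A48, A50, A55 and AB10. By this probe set Vhcl A59, among the highest for sarcomere genes, was the lowest tumor for Fbxo32. The other Fbxo32 probe sets had Lov A19 lowest, at 7.69 and 9.29, with Vhcl A59 at 7.71 and 9.40.

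**Figure D3:**
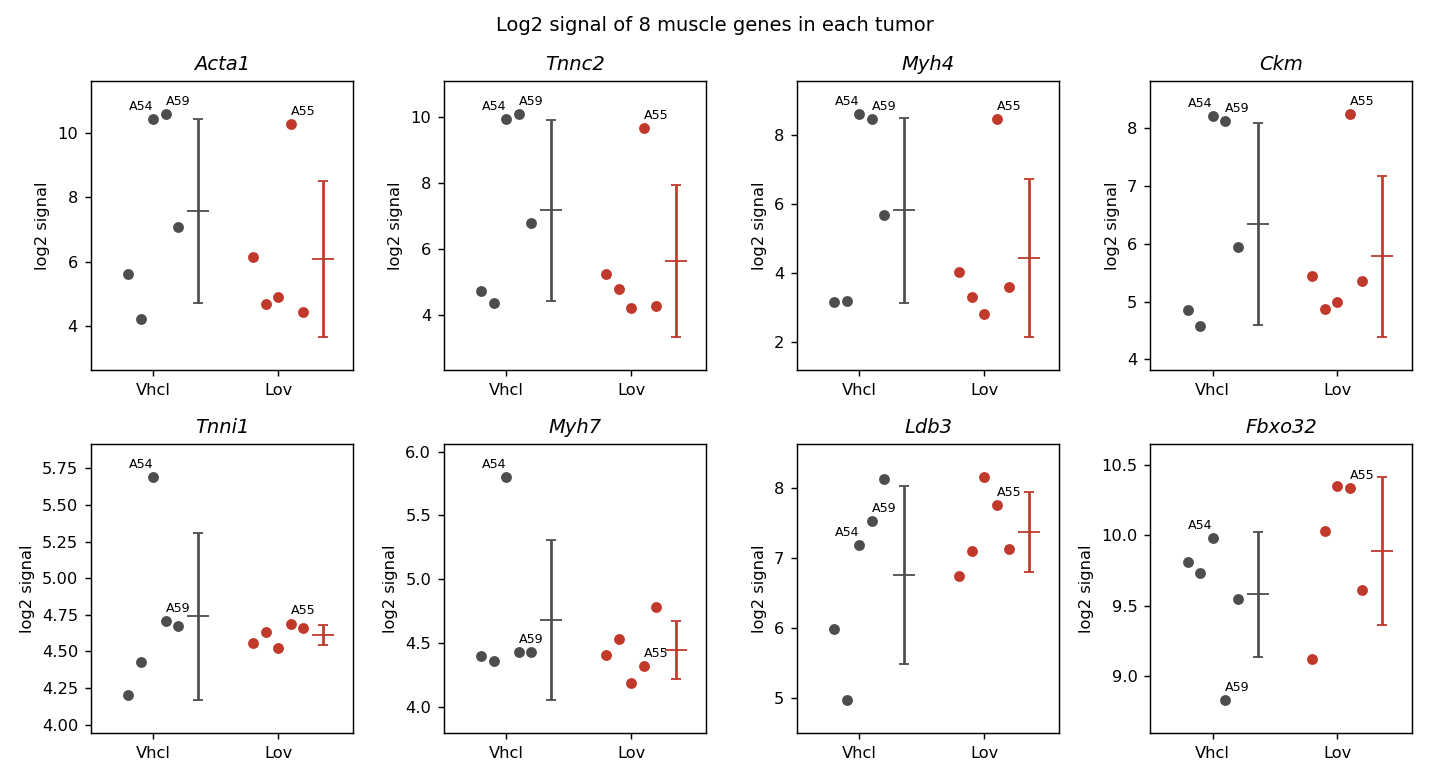
Log2 signal (vertical axis, not starting at 0, its own scale per panel) of 8 muscle genes in 5 Vhcl-treated (grey) and 5 Lov-treated (red) tumors, 1 point per tumor, with the group mean and SD to the right of the points and the tumors A54, A59 and A55 named. Acta1, Tnnc2, Myh4 and Ckm have these 3 tumors far above the others, Tnni1 and Myh7 have Vhcl A54 alone on top, and Ldb3 and Fbxo32 show neither pattern.

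The comparison of Lov with Vhcl asked whether skeletal muscle genes differed with treatment, and no gene of the 35 passed. By limma, 0 of 35 passed an FDR of 0.05 (0% of all genes did), with adjusted p-values of 0.970 to 0.998. With an unadjusted p under 0.05, 0 genes had lower and 0 had higher signals with Lov, against 2.75% and 3.5% of all genes. In no gene of the 35 did the groups separate, against 0.693% of all genes. The log2 difference, Lov minus Vhcl, was nevertheless below 0 in 32 of 35 genes (49.3% of all genes) and -0.5 or lower in 18 (2.44% of all genes). Its median was -0.56 over the 35 genes and 0.002 over all genes. Since the genes share the high tumors, of which 2 are Vhcl-treated and 1 is Lov-treated, these counts do not come from 35 independent measurements.

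The size of a difference followed the spread between tumors. Tnnc2 had the largest difference, with 7.17 ± 2.75 in the Vhcl and 5.63 ± 2.30 in the Lov tumors (SD, n = 5), a log2 difference of -1.54 with a standard error of 1.33 (limma, adjusted p = 0.988). Acta1 was at 7.58 ± 2.86 and 6.09 ± 2.42, a difference of -1.49 with a standard error of 1.39. For Myh1 and Myh4 it was -1.39 and -1.38, with standard errors of 1.24 and 1.32, and for Ttn -1.24 with a standard error of 1.04. These differences were about as large as their own errors. By class, the median difference was -0.82 for the fast-fiber genes, -0.61 for the shared sarcomere genes, -0.32 for the slow-fiber genes and -0.26 for the energy genes.

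The lowest p-values belonged to genes of narrower range. Tnnc1 differed by -0.38 (standard error 0.20; limma, unadjusted p = 0.0834, adjusted p = 0.970; exact permutation test, 2-sided p = 0.135). Ryr1 and Actn2 each differed by -0.61 with standard errors of 0.35 and 0.36. The 3 genes above 0 were Ldb3 at 0.61 (standard error 0.52), Fbxo32 at 0.31 (0.27) and Casq2 at 0.22 (0.13; limma, adjusted p = 0.972). Over the 35 genes, the exact permutation test gave 2-sided p-values of 0.135 to 0.937, where 5 tumors against 5 allow none below 0.00794. Without Vhcl A54, Vhcl A59 and Lov A55 together, an omission chosen after seeing the data, the difference was below 0 in 25 of 35 genes, and 0 passed an unadjusted p under 0.05 in either direction or an FDR of 0.05. Without them Acta1 differed by -0.59, Tnnc2 by -0.66 and Ttn by -0.51.

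**Figure D4:**
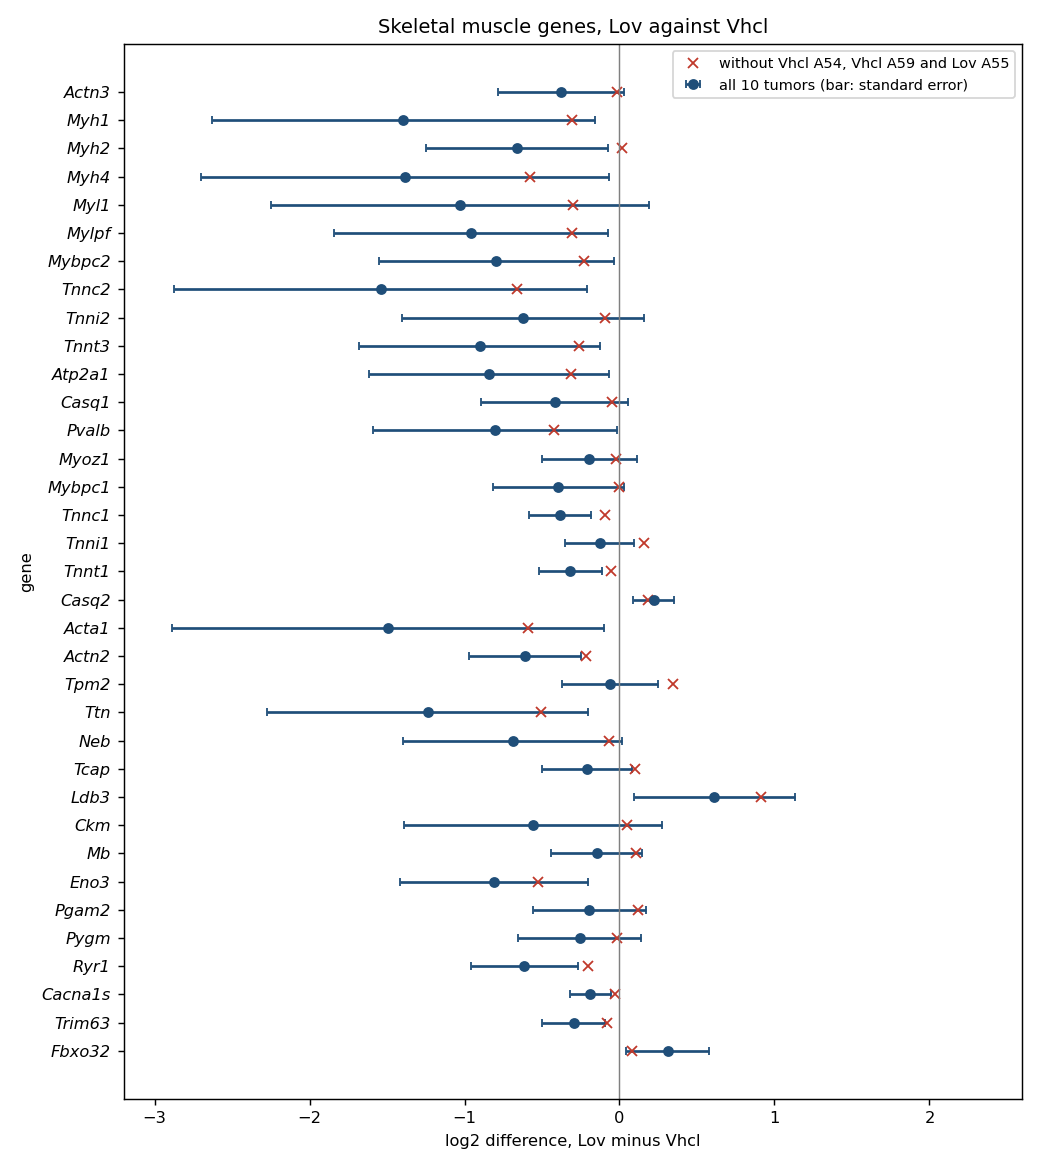
Log2 difference, Lov minus Vhcl (horizontal axis), of each of the 35 genes (vertical axis) over all 10 tumors (circles, with the standard error from limma as bars) and without Vhcl A54, Vhcl A59 and Lov A55 (crosses). Over all tumors 32 circles lie left of 0, with Tnnc2 farthest at -1.54, and most crosses lie nearer to 0 than their circles.

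As 1 score, the mean log2 signal over the 35 genes was 4.72, 4.59, 6.96, 7.01 and 5.44 in Vhcl A45, A49, A54, A59 and AB11. In Lov A19, A48, A50, A55 and AB10 it was 4.93, 4.72, 4.72, 6.74 and 4.85. The group means were 5.75 ± 1.18 and 5.19 ± 0.87 (SD, n = 5), a difference of -0.55 that is smaller than either SD. Score differences of the classes were -0.85 for fast-fiber, -0.53 for shared sarcomere and -0.20 for slow-fiber genes. The difference over all 35 genes was -0.94 without Lov A55, -0.24 without Vhcl A59 and -0.11 without the 3 high tumors. The sign of the slow-fiber score turned without these 3 tumors, to 0.04.

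A wider list held 62 other muscle genes, of which 59 had a probe set of their own. Vhcl A54, Vhcl A59 and Lov A55 were the 3 highest tumors in 13 of the 59, against 0.819% of all genes. These were 6 of 17 Z-disc and M-band genes, 4 of 8 triad and calcium genes and 3 of 12 energy genes. Of its 8 myogenic factors 0 had this order. At least 1 log2 unit above their own median were 9 of the 59 in Vhcl A54, 9 in Vhcl A59, 5 in Lov A55 and 0 in Vhcl AB11. Over all genes, 0.55%, 2.02%, 0.357% and 0.308% did so in these tumors. Myot, a Z-disc protein, was at 5.77, 5.83 and 4.57 in Vhcl A54, Vhcl A59 and Lov A55 and at 2.65 to 3.06 elsewhere. Myom2, of the M-band of fast fibers, was at 5.27, 6.22 and 4.84 there and at 3.07 to 3.83 elsewhere. Trdn, the triad protein triadin, was at 6.0, 6.54 and 6.11 there and at 4.16 to 4.70 elsewhere. Srl, sarcalumenin of the sarcoplasmic reticulum, was at 5.94, 6.80 and 6.09 there and at 4.85 to 5.82 elsewhere. These genes have the tumor order of the fast-fiber genes.

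Slow and embryonic myosins behaved otherwise. Myh7, the heavy chain of slow fibers and of the ventricle, was at 5.80 in Vhcl A54 and at 4.19 to 4.78 in the other tumors, with 4.43 in Vhcl A59 and 4.32 in Lov A55. Myl2, the slow regulatory light chain, was at 5.24 in Vhcl A54 and at 3.61 to 4.11 in the others. With Tnni1, Tnnc1 and the brighter Mb probe set, these genes set Vhcl A54 apart from Vhcl A59 and Lov A55. Other genes of slow muscle did not. Myl3, a further light chain on this list, was at 5.69, 5.55 and 5.60 in Vhcl A54, Vhcl A59 and Lov A55, and highest in Lov AB10 at 5.96. Mybpc1 and Ankrd2 were highest in Vhcl A59, at 6.37 and 5.94, with 5.82 and 5.73 in Vhcl A54. Myh3 and Myh8, the embryonic and perinatal heavy chains, ranged over 0.62 and 0.37 and did not follow the 3 tumors.

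Of 8 myogenic factors and satellite cell genes, 0 lay 1 log2 unit above their median in any of Vhcl A54, Vhcl A59, Lov A55 and Vhcl AB11. Only 0.55%, 2.02%, 0.357% and 0.308% of all genes did so there, and so 0 of 8 is not particular to this list. Myod1 and Myog, which switch on muscle genes in myoblasts, were at 3.71 to 4.70 in all tumors. The widest ranges in that list were 0.98 for Mef2c and 0.91 for Pax3. Chrnb1 and Chrne, subunits of the acetylcholine receptor of the nerve-muscle synapse, ranged over 1.67 and 0.91. In the 3 tumors 0 of 8 genes of the sarcolemma and synapse were 1 log2 unit up, which the low shares over all genes make no result either. Ppp1r3c and Pdk4, which steer glycogen and fuel use in several tissues, ranged over 2.28 and 2.2, with Ppp1r3c highest in Vhcl A45. Between the groups, 1 of the 59 genes (1.69%) was lower with Lov by an unadjusted p under 0.05, against 2.75% of all genes. That gene was Ankrd2, a stretch-response protein of slow muscle (log2 difference -0.40, limma, unadjusted p = 0.0420, adjusted p = 0.932). By the same criterion 0 were higher, against 3.5% of all genes, and 0 passed an FDR of 0.05. The difference was below 0 in 32 of the 59 (54.2%), close to the 49.3% of all genes.

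Markers of other tissues that could be taken with a mammary tumor were read in the same way, with 63 of 69 listed genes measured in 10 lists. The 8 heart markers, which include the cardiac forms of myosin and troponin, had a mean log2 signal of 4.09 to 4.34 with Vhcl and of 4.16 to 4.31 with Lov. The 8 smooth muscle markers lay at 6.12 to 6.47 and 6.11 to 6.57. No gene of either list was 1 log2 unit above its median in Vhcl A54, Vhcl A59 or Lov A55, where 0.55%, 2.02% and 0.357% of all genes were. By order alone, 1 of the 8 heart markers and 1 of 8 mammary luminal markers had these 3 tumors on top. The heart marker was Actc1, at 4.34, 4.02 and 4.33 there and at 3.59 to 3.93 elsewhere. Lov A19, where Tpm2 was also high, had the highest smooth muscle mean, 6.57, with Vhcl A59 next at 6.47. Whether smooth muscle bears on the Tpm2 signal was not tested.

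Adipose tissue surrounds the mammary gland, and 1 of 6 white adipocyte markers had the 3 high tumors on top. The 6 markers had means of 4.86 to 5.41 with Vhcl and of 4.52 to 5.18 with Lov. Vhcl A59 (5.41) and A54 (5.29) were highest, while Lov A55 at 5.17 lay below Vhcl A45 at 5.20 and Lov A19 at 5.18. The marker with the 3 tumors on top was Adipoq, which only adipocytes make in quantity, at 5.69, 6.14 and 5.83 in Vhcl A54, Vhcl A59 and Lov A55 and at 3.70 to 5.20 in the other tumors. Fabp4, the fatty acid binding protein of adipocytes, was at 8.36 and 8.51 in Vhcl A54 and A59 but at 7.32 in Lov A55, below Lov A19 at 8.45. Lep, which encodes leptin, was lowest in Vhcl A54 and A59, at 3.11 and 3.15, and Lipe, the hormone-sensitive lipase, was lowest in Vhcl A59 at 5.46. The mean of the salivary gland markers was highest in Vhcl AB11 (10.93), next in muscle signal after the 3 high tumors, and second highest in Vhcl A59 (7.05), 1 of those 3. Vhcl A54 and Lov A55 stood at 5.51 and 5.10, within the range of the low tumors. The 3′ excess of the beta-actin transcript over its 5′ part, a measure of RNA breakdown, was (in log2) 1.20 in Vhcl A54 and 1.35 in Vhcl A59, the highest of the 10, but 0.68 in Lov A55, where the lowest was 0.67. The part of adipose tissue, salivary gland and RNA quality in the muscle signals was not tested.

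**Figure D5:**
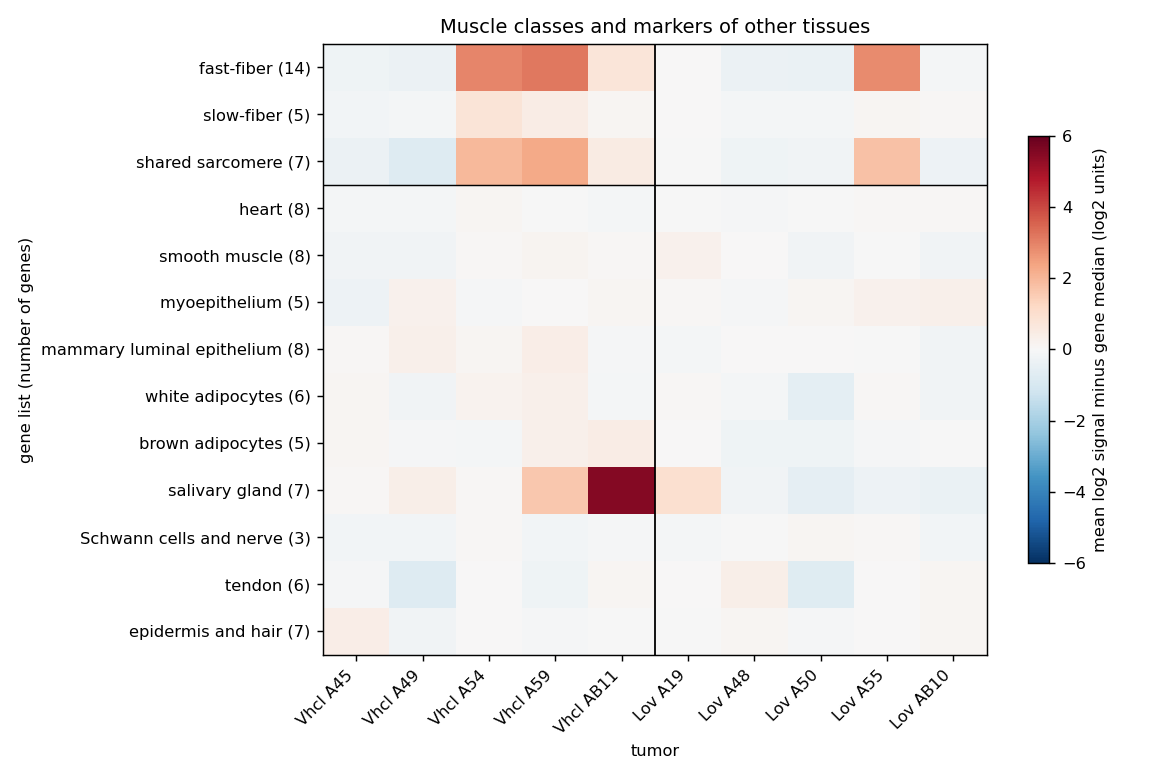
Mean log2 signal minus the gene's median (color, log2 units) over the genes of 3 muscle classes and 10 marker lists of other tissues (vertical axis, with the number of genes) in each tumor (horizontal axis, Vhcl left and Lov right of the line). The red of the fast-fiber genes in Vhcl A54, Vhcl A59 and Lov A55 is absent from the heart, smooth muscle, tendon and epidermis lists, and the salivary list is red in Vhcl AB11 with 5.51 and, less so, in Vhcl A59 with 1.63.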

How the data were processed

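RNA of 5 Vhcl-treated and 5 Lov-treated Tg-neu tumors was hybridized by the authors to 1 Affymetrix whole-genome mouse array per tumor. The deposited values are log2 signals with 2 decimals, which the authors made by RMA with the affy package, according to the submitters' processing notes (version not given in the sources used here). RMA subtracts background, equalizes the distributions of the arrays and summarizes the probes of a probe set, which narrows the range of dim probe sets. Detection calls were not used here. An array has no sequencing depth, and precision is limited by how few arrays there are.

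Of 45101 probe sets, 64 array controls were left out and 45037 were tested. Of these, 34945 carried 1 gene symbol, 932 several and 9160 none. Symbols were updated through a mouse gene table (GRCm38.p6, used for names), where 34741 matched, and the probe set with the highest mean signal stood for each of 18193 genes. Groups and doses were taken from labels and methods. Lov was compared with Vhcl by limma 3.58.1 in R 4.3.3 (empirical Bayes moderation, 2-sided, Benjamini-Hochberg adjustment over all 45037 probe sets), and single genes also by an exact permutation test over all 252 assignments. Class means and deviations from a gene's own median were computed in Python 3.11.15 as descriptions with no test. On simulated data the procedure recovered the changes that had been put in. Promoter windows came from RefSeq (GRCm38.p6).

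The 35 genes, their classes, the other gene lists and the rules for naming genes were chosen with earlier results of these data known. Values in every tumor were printed for the 3 genes of each class with the widest range and for those with the 3 lowest limma p-values in each direction. Of the other muscle genes, the 2 of widest range per class were named, as were the 5 genes outside all lists with the highest correlation with the muscle score. Genes that share a pattern with these were named after their values were seen. Alternatives tried were weights for the arrays, Student's test without moderation, a prior with trend and robustness, quantile normalization once more, centered arrays, a covariate for the prefix of the tumor IDs, other probe set rules, other scores, and leaving out tumors.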

Additional observations from a re-analysis of the deposited data

Results flagged for a closer look

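In each group of 5 tumors, the gap between the outermost tumor and its neighbor was divided by the range of the group, for the 35 genes and 4 scores (78 groups of values). A tumor was held to be set apart above Dixon's 95% critical value, which chance exceeds in about 1 of 20 groups, and 23 of the 78 did so. The genes share tumors, so these are not 23 separate events. They were also listed with earlier results of these data known, so the rate of 1 in 20 is no yardstick for this count.

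In 22 of the 23, Lov A55 was set apart from the other Lov-treated tumors on the high side. Among the fast-fiber genes the gap was 0.894 of the range for Actn3, 0.734 for Myh1, 0.788 for Myh4, 0.846 for Myl1, 0.839 for Mylpf, 0.864 for Mybpc2 and 0.811 for Tnnc2. It was 0.775 for Tnni2, 0.927 for Tnnt3, 0.729 for Atp2a1, 0.861 for Casq1, 0.784 for Pvalb and 0.733 for Myoz1. Among the shared sarcomere genes it was 0.711 for Acta1, 0.873 for Ttn and 0.923 for Neb. The energy genes Ckm, Eno3 and Pygm had 0.828, 0.714 and 0.882. The scores over all 35, the fast-fiber and the shared sarcomere genes had 0.897, 0.868 and 0.865. Without Lov A55, the log2 difference of Acta1 was -2.54 and that of Tnnc2 -2.55.

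In the Vhcl group, Tnnc1 was set apart in Vhcl A54, at 0.720 of the range. The sarcomere genes did not meet the criterion there, since Vhcl A54 and Vhcl A59 were both high and lay next to each other.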

How the results depend on the processing

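The call did not change under any alternative: 0 of 35 genes passed an FDR of 0.05, and the lowest adjusted p of a gene was 0.735. Of 678 values of single genes under alternatives, 664 kept the direction. The number of genes lower with Lov by an unadjusted p under 0.05 was 0, but 2 with array weights (Tnnc1 and Tnnt1), and 0 to 5 when 1 tumor was left out: 2 without Vhcl A45 (Ryr1 and Trim63), 4 without Vhcl A49 (Tnnt1, Actn2, Ryr1 and Cacna1s), 5 without Lov A55 (Tnnc2, Pvalb, Actn2, Ttn and Eno3) and 2 without Lov AB10 (Tnnc1 and Tnnt1). The cause was not tested. The number with a difference below 0 was 29 to 32 with 1 tumor left out, and 17 of 20 genes whose probe set lay above the median signal. Above that signal the slow-fiber score rested on Casq2 alone, at 0.22.

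Without Vhcl A54, Vhcl A59 and Lov A55 together, chosen after seeing the data, 7 differences changed sign: Myh2 0.014, Tnni1 0.16, Tpm2 0.35, Tcap 0.10, Ckm 0.05, Mb 0.11 and Pgam2 0.12. With 1 tumor left out, Tnni1 ranged from -0.26 to 0.11 and Mb from -0.29 to 0.14, both positive without Vhcl A54. Pgam2 ranged from -0.41 to 0.049, positive without Vhcl A59. Tpm2 ranged from -0.24 to 0.12, positive without Vhcl A54 (0.09), Vhcl A59 (0.12), Lov A50 (0.08) or Lov AB10 (0.04). Score differences with 1 tumor left out were -0.94 to -0.24 over all 35 genes, -1.46 to -0.37 for fast-fiber, -0.30 to -0.06 for slow-fiber and -0.92 to -0.14 for shared sarcomere genes.

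No paired analysis was possible because the tumor IDs carry no numbers that the groups share. Whether probe sets at the lowest log2 signals were above background was not tested, and RMA narrows changes there. Array signals do not give cell numbers, and 5 tumors per group leave standard errors above 1 log2 unit for the genes of widest range.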

Other observations

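Outside the 35 genes, few genes split the tumors in the same way. In 33 of 18193 genes the lowest of Vhcl A54, Vhcl A59 and Lov A55 lay at least 0.5 log2 units above the highest of the other 7 tumors, and 23 of these were among the 35. A further 6 were on the list of other muscle genes (Myot, Trdn, Smpx, Myom2, Ckmt2 and Ampd1). The remaining 4 were Car3, a carbonic anhydrase of muscle and fat, with a gap of 1.77, Fhl1, a LIM protein of striated muscle, with 1.40, Cmya5, the muscle protein myospryn, with 0.84, and Myhas, an antisense transcript of the myosin heavy chain locus, with 0.53. Car3 was at 9.58, 10.28 and 9.94 in Vhcl A54, Vhcl A59 and Lov A55 and at 3.21 to 7.81 in the other tumors.

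By correlation with the muscle score, which is partly set by the 3 high tumors, the 5 genes outside all lists that were most like it were Cmya5 (Pearson's r = 0.950 over 10 tumors), Fhl1 (0.948), Tpbgl (0.921), Abcc1 (0.909) and Myhas (0.904). Without Vhcl A54 and Vhcl A59, r was 0.883, 0.879, 0.825, 0.775 and 0.843. Lov A55, also high, stayed in, so these values too are partly set by a high tumor. Tpbgl and Abcc1 ranged over no more than 0.45 and 0.58 log2 units. These correlations were picked as the highest of all genes and carry no test.

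Vhcl A54 alone lay at least 0.5 log2 units above all other tumors in 54 genes. Muscle genes among these were Myl2, Mb, Myh7, Tnni1, Tnnc1 and Trim63, with gaps of 1.13, 1.04, 1.02, 0.98, 0.77 and 0.64. The widest gaps were those of Gm3715 (1.94) and Gadd45b (1.50), which are not muscle genes of the lists.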
